A study of Mus musculus with 14 samples.

Results

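Levels of 9 uptake genes were followed across the 14 libraries of the series: the receptor tyrosine kinases Mertk and Axl, the bridging proteins Gas6 and Mfge8, the scavenger receptors Cd36, Msr1 and Marco, and the Fc gamma receptors Fcgr1 and Fcgr3. They were taken by gene symbol, and are 9 of 19940 genes in the deposited table. The libraries came from macrophages that had entered the central nervous system at the peak of experimental autoimmune encephalomyelitis (EAE), a mouse model of multiple sclerosis. Hosts were lethally irradiated and given a mixture of bone marrow in equal parts from 2 donors, and the monocyte-derived macrophages were sorted by donor origin. The mCAT cells (7 libraries) carried CD45.2, a CreERT2 allele at Ccr2 and an allele written mcat lsl/wt, which the series' design ties to mitochondrial catalase. The wt cells (7 libraries) carried CD45.1, and their labels name no Cre or catalase allele. All 14 libraries bear the treatment label tamoxifen, and both kinds of cell had shared the transplant, the host environment and the disease. The sources used here give no age, sex or host strain, and the share of mCAT cells in which the allele had recombined was not measured here.

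Dying cells expose phosphatidylserine. Gas6 and protein S couple it to the TAM receptor kinases Tyro3, Axl and Mertk, and Mfge8 couples it to alpha-v integrins, which leads to engulfment without inflammation (efferocytosis). Scavenger receptors take up oxidised lipoproteins, lipids and debris, and activating Fc gamma receptors take up particles coated with IgG through the immunoreceptor tyrosine motif of a shared gamma chain, Fcer1g. In demyelinating disease, macrophages use receptors of all these kinds to clear myelin and dead cells.

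Values are normalised counts, recovered from the deposited log2-scale values, and differences between groups are in log2 units. Estimated depth ran between 27.4 and 46.9 M reads (M for mega) in mCAT libraries and between 16.7 and 43.5 M in wt libraries. A library code in the labels places the libraries on 8 stems, 6 of which hold 1 mCAT and 1 wt library. The stems belong to code series C2 (6 libraries on 3 stems) and C1 (8 libraries on 5 stems). The labels do not say what the series or stem stands for, and do not say that separate libraries are separate hosts, so p-values measure the spread between these libraries. Libraries on 1 stem deviated together over all genes (correlations between 0.232 and 0.659). The 4 libraries of stems C2_2 and C2_4 lay together at 1 end of the leading principal component, which held 34.5% of the variance, and wt 1 lay at the other end. None of the 9 genes lies within 10 Mb of Ptprc, which encodes CD45, or of Ccr2. All 10 of 10 macrophage markers passed the filter on low values. So did 10 of 10 dendritic cell markers, so passing this filter does not tell cell types apart. Catalase (Cat) RNA averaged 2831 ± 808 normalised counts in mCAT and 2155 ± 626 in wt (SD, n = 7 each), a log2 difference of 0.39 that did not pass (limma adjusted p = 0.878). Ccr2 RNA averaged 8391 ± 2975 in mCAT and 13742 ± 5015 in wt. Its log2 difference was -0.68 (limma adjusted p = 0.878), and -0.80 with the stem as a block (limma adjusted p = 0.00587).

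Levels were compared between genes per kilobase of transcript. Fcgr3 stood highest of the tested uptake genes, at a mean of 53678 normalised counts per kilobase over all 14 libraries, followed by Fcgr1 at 6277 and Msr1 at 4777. Axl had 3811 per kilobase, Mertk 652, Mfge8 584, Cd36 149 and Gas6 100.5, beside a median of 161 over the genes tested. Fcgr3 lay above Fcgr1, and Axl above Mertk, with no overlap between libraries. The order was less secure elsewhere. Ranges overlapped between Fcgr1 and Msr1 and between Mfge8 and Cd36, although the order was the same in 14 of 14 libraries for both pairs. Msr1 exceeded Axl in 10 of 14 libraries, Mertk exceeded Mfge8 in 10 of 14, and Cd36 exceeded Gas6 in 12 of 14. Fcer1g, the signalling chain that Fcgr1 and Fcgr3 use, had 98898 per kilobase. The inhibitory receptor Fcgr2b had 16193 per kilobase, and its transcript matches that of Fcgr3 at 96.5% of 509 aligned bases out of 1347, so reads may be split between these genes. Protein S (Pros1), the other ligand of the TAM receptors, had 345 per kilobase, above Gas6, and the third TAM receptor, Tyro3, had 2.03.

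**Figure D1:**
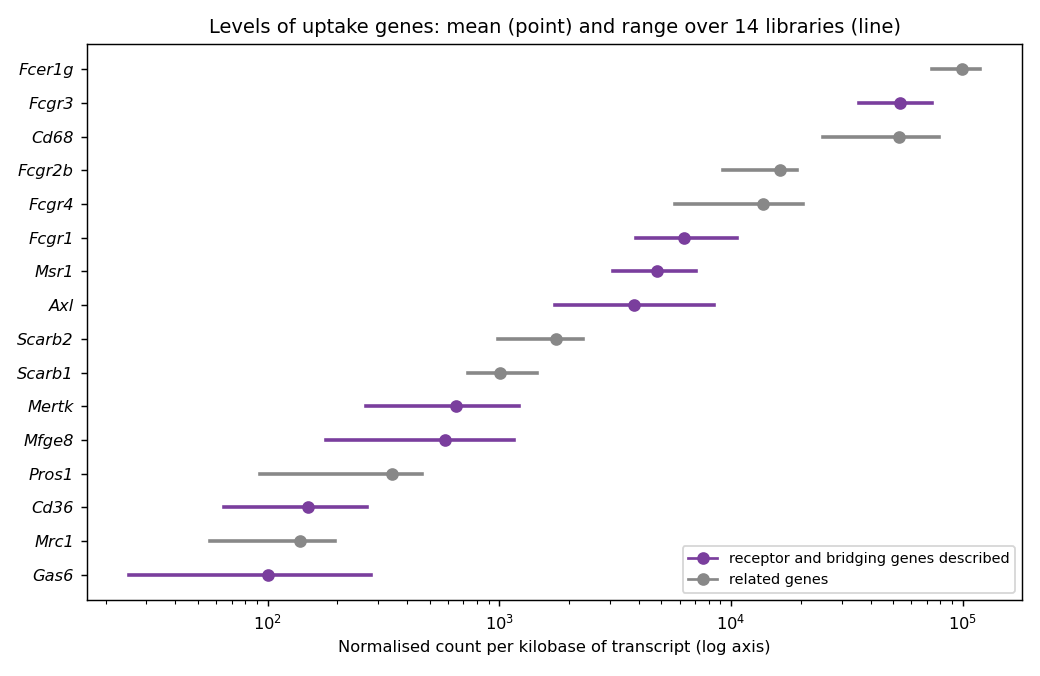
Level per kilobase of transcript (normalised counts per kilobase, logarithmic axis) of the 8 tested uptake genes and of related receptors and bridging genes, with the mean over 14 libraries as the point and the lowest and highest library as the bar. Fcgr3 lies above Fcgr1 and Axl above Mertk without overlap, while the other neighbours among the uptake genes overlap.

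Mertk, the receptor best known for clearance by mature macrophages, ran between 1753 and 5209 normalised counts in mCAT (median 2355), against between 1138 and 4281 in wt (median 2436). Mertk was highest in mCAT 6 and lowest in wt 4, and the genotypes overlapped. Axl, which inflammation and interferon are known to induce, ran between 9391 and 35842 in mCAT (median 15436), against between 7407 and 24037 in wt (median 12640). The highest Axl values were those of mCAT 6 and mCAT 7, and the lowest was that of wt 1. On the 6 shared stems, mCAT had more Axl than wt in 5 and more Mertk in 4. The widest gap of both lay on stem C2_2, where Axl had 35842 in mCAT and 16665 in wt, a ratio of 2.15, and Mertk had 5209 in mCAT and 2665 in wt, a ratio of 1.95.

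Gas6, the vitamin K-dependent ligand that activates Axl and Mertk, ran between 64.4 and 715 in mCAT (median 243), against between 93.1 and 591 in wt (median 149). Both libraries of stem C2_2 stood well above the rest, with 715 in mCAT 6 and 591 in wt 6, against at most 307 elsewhere. Mfge8 ran between 683 and 2470 in mCAT (median 862), against between 379 and 2187 in wt (median 954). Its highest 4 libraries were those of stems C2_2 and C2_4, at 2295 and 2470 in mCAT and 2187 and 2016 in wt. The next values were 1470 in mCAT 1 and 1112 in wt 2, both of stem C1_2. The partners of a stem were thus close in Mfge8, within a factor of 1.32 on all 6 shared stems, while the highest stem mean was 5.91 times the lowest, both in normalised counts.

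Cd36, a receptor for oxidised lipids and long-chain fatty acids, ran between 219 and 726 in mCAT (median 503), against between 337 and 913 in wt (median 468). Msr1, the class A scavenger receptor, ran between 13294 and 22027 in mCAT (median 16305), against between 11194 and 25608 in wt (median 15930). Cd36 and Msr1 were both highest in wt 5. Msr1 was lowest in the library pair of stem C2_2, at 13294 in mCAT and 11194 in wt, where Axl, Gas6 and Mfge8 were high. Marco, a related class A receptor of resident macrophages in spleen and lung, had 0 in 7 of 7 mCAT libraries, where a count of 0 allows up to 3 reads, between 2.38 and 4.08 normalised counts. It had 0 in 6 of 7 wt libraries and 7.21 in wt 5, and was not tested.

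Fcgr1, the high-affinity IgG receptor, ran between 10698 and 21896 in mCAT (median 14892), against between 10073 and 27584 in wt (median 14557). Fcgr3, a low-affinity activating receptor, ran between 48219 and 85766 in mCAT (median 73398), against between 49773 and 99049 in wt (median 73107). By stem mean, Fcgr1 was lowest on C2_2 and highest on C2_1, and Fcgr3 was lowest on C2_2 and highest on C1_5. Stem C2_2, among the highest in Axl, Gas6 and Mfge8, was thus at the bottom in both Fc receptors and in Msr1.

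**Figure D2:**
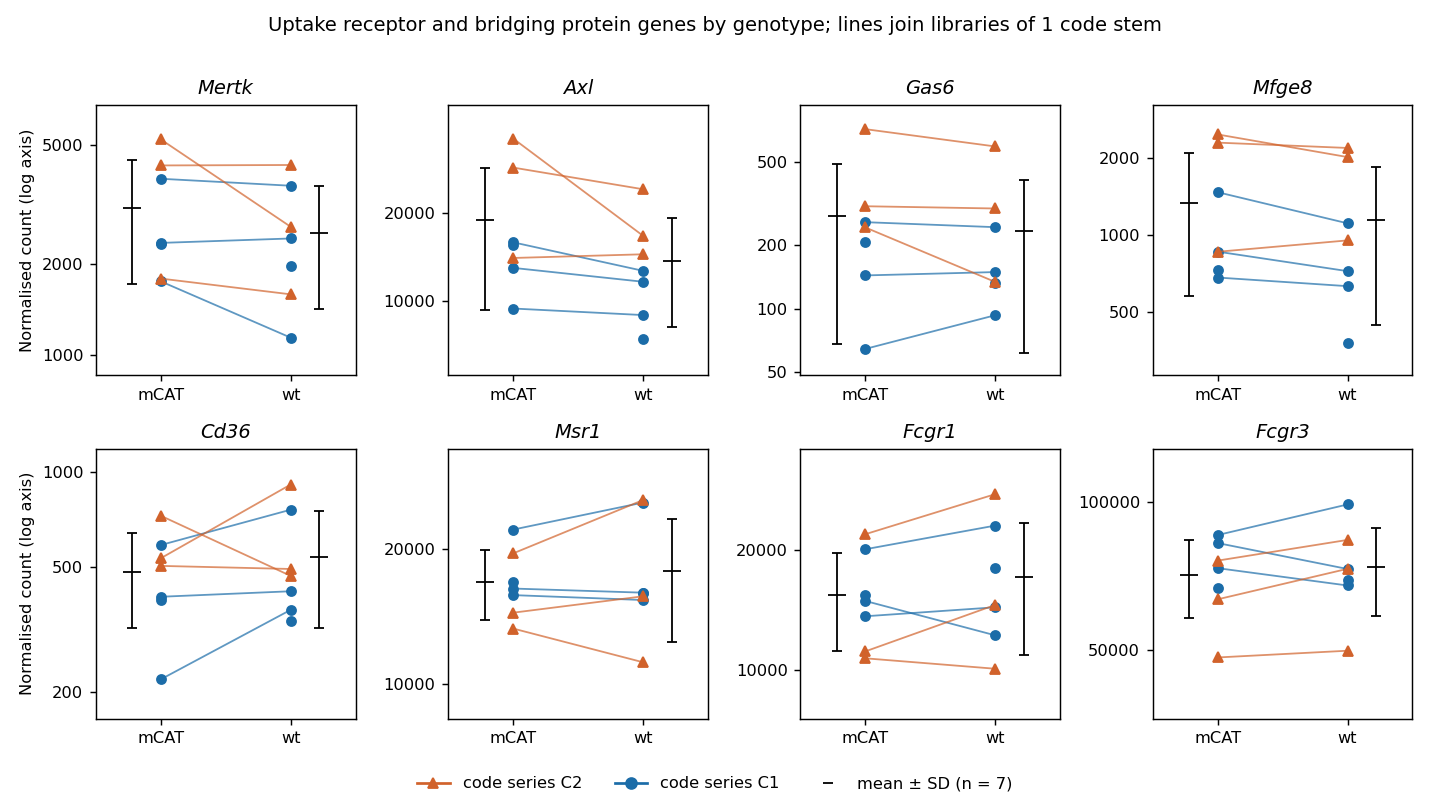
Normalised counts (logarithmic axis) of the 8 tested uptake genes in the 7 mCAT and 7 wt libraries, with lines joining libraries of the same library-code stem and bars for the mean ± SD. The genotypes overlap in every gene shown, and stem C2_2 is highest in Gas6 and lowest in Msr1, Fcgr1 and Fcgr3 in both genotypes.

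The main comparison sets mCAT libraries against wt libraries. The catalase allele, the CreERT2 allele at Ccr2 and the CD45.2 or CD45.1 donor differ together between them, so their effects cannot be told apart here. No tested uptake gene passed the test between mCAT and wt: limma with Benjamini-Hochberg adjustment over 12096 genes called 0 of 8, where 0.198% of all genes were called, and 0 of 8 had an unadjusted p under 0.05. The fitted log2 differences of the TAM receptors and the bridging genes were 0.41 for Axl (95% interval -0.20 to 1.02), 0.27 for Mertk (-0.34 to 0.89), 0.24 for Mfge8 (-0.52 to 1.003) and 0.14 for Gas6 (-0.53 to 0.81). For the scavenger and Fc receptors they were -0.12 for Cd36 (-0.57 to 0.33), -0.05 for Msr1 (-0.42 to 0.33), -0.12 for Fcgr1 (-0.58 to 0.34) and -0.05 for Fcgr3 (-0.40 to 0.29). Adjusted p-values ran between 0.878 and 0.980.

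Comparing partners on the same stem narrowed the intervals. With the stem as a block, Axl differed by 0.31 (95% interval 0.04 to 0.57, unadjusted p = 0.0250, limma adjusted p = 0.483) and Mertk by 0.28 (0.02 to 0.54, unadjusted p = 0.0359, limma adjusted p = 0.514). Neither passed the adjustment, and the block called 0 of 8 uptake genes against 0.322% of all genes (39 genes, where the fit without the block called 24). Axl and Mertk were the 2 of 8 genes with an unadjusted p under 0.05, which 9.23% of all genes had. Stem C2_2 gave the largest differences, 1.10 for Axl and 0.94 for Mertk. On the other shared stems they ran between -0.04 and 0.32 for Axl and between -0.05 and 0.57 for Mertk. The SD over 6 pairs was 0.41 for Axl and 0.39 for Mertk, and the intervals above rest on limma's moderated variances. With the title number as the block Mertk differed by 0.17 (unadjusted p = 0.295), and Axl alone of the 8 had an unadjusted p under 0.05, where 10.2% of all genes had one. No uptake gene had the same sign on all 6 stems, which 649 genes (5.37%) had, and no uptake gene separated mCAT from wt without overlap, which 0.24% of genes did. Axl's difference was 0.40 within C1 (4 libraries each) and 0.43 within C2 (3 each), and Mertk's was 0.21 within C1 and 0.36 within C2. The test of whether a genotype difference itself differed between the series found 0 of 12096 genes by limma (339 had an unadjusted p under 0.05), and all 8 uptake genes had an adjusted p of 0.9999. Of all genes, 0% were called there.

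**Figure D3:**
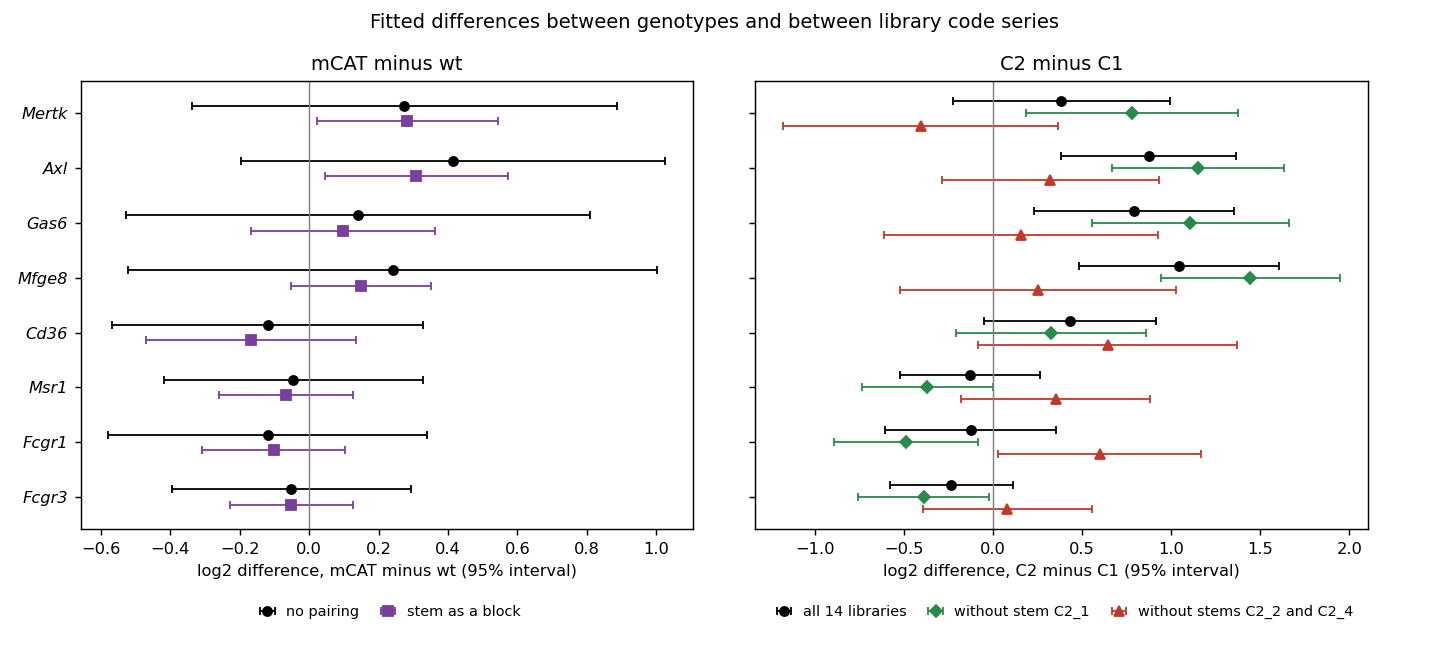
Fitted log2 differences with 95% intervals for the 8 tested uptake genes, mCAT minus wt at left (without pairing and with the library-code stem as a block) and C2 minus C1 at right (all 14 libraries, without stem C2_1, and without stems C2_2 and C2_4). The genotype intervals all include 0 without pairing, and the C2 minus C1 differences of Mfge8, Axl and Gas6 are smaller without stems C2_2 and C2_4.

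A factor with 8 stems over 14 libraries must take more of the variance than one with 2 genotypes, so each share is given beside that of all genes. Of the variance of log2 values, the stem took between 76.3% (Cd36) and 98.0% (Mfge8), with a median of 77.0% over all genes tested, and the genotype took between 0.50% (Msr1) and 11.7% (Axl), with a median of 4.56%. In normalised counts, the highest stem mean was 8.29 times the lowest in Gas6, 5.91 times in Mfge8, 3.55 times in Axl and 2.96 times in Mertk. The ratio was 2.47 in Cd36, 2.38 in Fcgr1, 1.93 in Msr1 and 1.89 in Fcgr3. The spread of Mertk, Axl, Gas6 and Mfge8 between libraries was above that of 95.5% to 97.8% of the genes tested, and that of Fcgr3 was above 45.9%. In bulk libraries, fewer cells of a type and less RNA per cell cannot be told apart, and this holds for each of these differences.

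**Figure D4:**
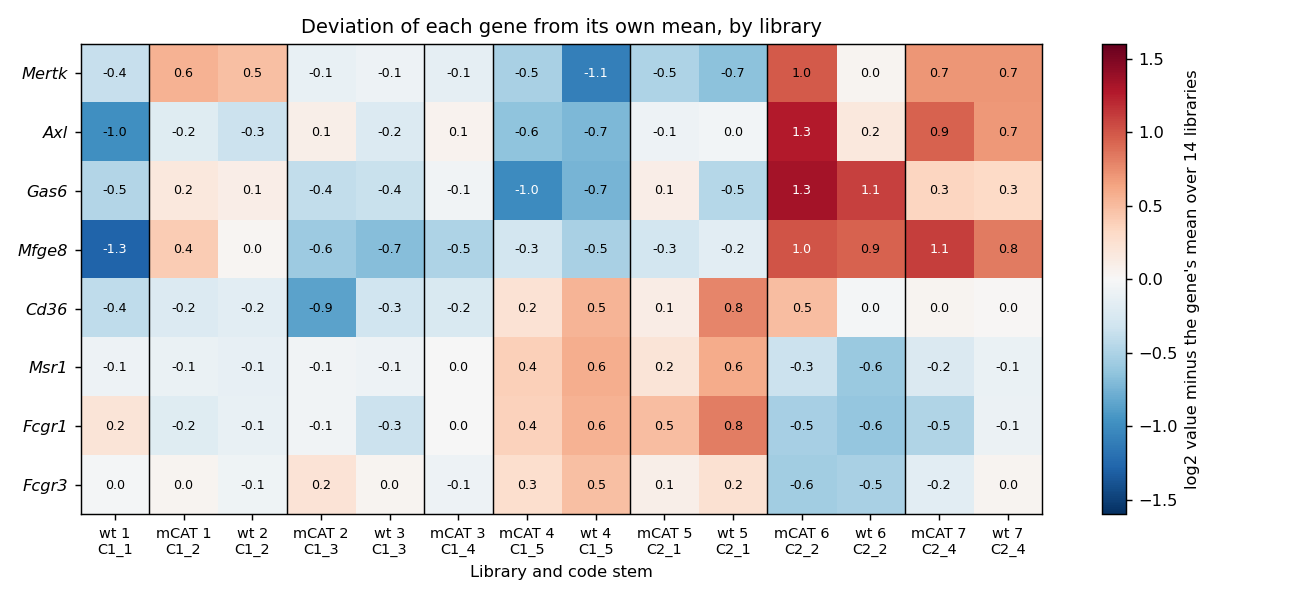
Deviation of each of the 8 tested uptake genes from its own mean (log2 units) in the 14 libraries, ordered by library-code stem. Axl, Gas6 and Mfge8 are high on stems C2_2 and C2_4, Fcgr1 and Fcgr3 are low on stem C2_2, and stem C2_1 is high in Msr1 and Fcgr1.

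Across the 14 libraries, with each genotype mean removed, the genes formed sets. Mertk, Axl, Gas6 and Mfge8 correlated with one another with Pearson's r between 0.717 and 0.808, and Msr1, Fcgr1 and Fcgr3 did so between 0.788 and 0.934. Between these sets r was negative throughout, from -0.508 for Axl and Msr1 to -0.900 for Gas6 and Fcgr3. Cd36 was only loosely tied to either, with r between -0.165 and 0.474. These values are a description over 14 libraries that share 8 stems, with 4 libraries (stems C2_2 and C2_4) standing apart, and they carry no test.

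C2 was set against C1 with the genotype as a term and the stem as a block. Mfge8 was higher in C2, by 1.04 log2 units (SE 0.27, limma adjusted p = 0.0430), and was the 1 of 8 uptake genes called, where 2.71% of all genes were called and 1.6% were called higher. Mfge8 averaged 1797 ± 705 normalised counts in C2 (SD, n = 6) and 825 ± 333 in C1 (SD, n = 8). Axl differed by 0.87 (SE 0.23, limma adjusted p = 0.0531), with 22239 ± 8813 in C2 and 11768 ± 3043 in C1, and Gas6 by 0.79 (SE 0.27, limma adjusted p = 0.124), with 382 ± 223 in C2 and 162 ± 69.4 in C1. Neither passed, nor did Cd36 at 0.43, Mertk at 0.38, Fcgr3 at -0.23, Msr1 at -0.13 or Fcgr1 at -0.13 (limma adjusted p between 0.357 and 0.843). No uptake gene separated C2 from C1 without overlap, which 2.25% of genes did.

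The Mfge8 call lay close to the threshold for adjusted p, so leaving out most single libraries ended it. The size of the Mfge8 difference depended on stems C2_2 and C2_4. Leaving out 1 library at a time gave log2 differences between 0.89 and 1.18 with limma adjusted p between 0.0166 and 0.0949, and the call was lost in 10 of 14 fits. These were the fits without wt 1, 3, 4, 6 or 7 or without mCAT 2, 3, 4, 6 or 7. Without stems C2_2 and C2_4 the Mfge8 difference was 0.25, Axl's 0.32 and Gas6's 0.16 (limma adjusted p = 0.9996 for each), with C2 represented by stem C2_1 alone. Without stem C2_1 they were 1.44 for Mfge8 (limma adjusted p = 0.00128), 1.15 for Axl (0.00471) and 1.11 for Gas6 (0.0134). All 3 passed, where 1170 of 12096 genes were called. Both exclusions were chosen after seeing the data, so their p-values are no separate test. The libraries of stem C2_1 sat with C1 in these genes: Mfge8 had 861 in mCAT 5 and 954 in wt 5.

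Microglial markers moved with these stems. The summed level of the microglia list (9 of 10 markers in the table, 8 tested, none at 0 in all libraries) ran between 40689 and 82688 normalised counts in C2 and between 18700 and 45046 in C1, and its highest 4 values (67711 to 82688) were those of stems C2_2 and C2_4. Tmem119, P2ry12 and Sall1, which define microglia, reached 3500, 1453 and 36.2 at most. The sum of the macrophage list, most of it lysozyme (Lyz2), ran between 1734221 and 4494388 in C2 and between 875805 and 1468339 in C1. That sum too was highest in the 4 libraries of stems C2_2 and C2_4 (2645369 to 4494388, against at most 1819518 elsewhere). Between genotypes the microglial sum overlapped, at 28458 to 82688 in mCAT and 18700 to 81663 in wt, and was higher in mCAT on 3 of 6 stems. The summed level of the border-associated macrophage list (5 of 8 markers tested, most of the sum F13a1) was higher in mCAT on 6 of 6 stems, by ratios of 1.03 to 1.71, at 17517 to 43292 in mCAT and 11186 to 31346 in wt. The T cell list (8 of 10 markers tested, most of the sum Il7r) was also higher in mCAT on 6 of 6 stems, by ratios of 1.01 to 1.32. Its sum was 3287 to 8355 in mCAT and 2912 to 6637 in wt. Il7r alone ran between 2047 and 8084 over the libraries, while Cd3d, Cd3e and Cd3g had medians of 30.5, 22.9 and 34.2. The remaining lists were higher in mCAT on 1 to 4 of 6 stems. The part of the border-associated macrophage and T cell lists in the differences of Axl and Mertk within stems was not tested. The part of the microglial or macrophage list in the differences of Mfge8, Axl and Gas6 was not tested. Fcgr1 is itself on the macrophage list, Mfge8 on the astrocyte list, Gas6 on the endothelial list and Cd36 on the endothelial and platelet lists.

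Promoter sequences are shown for Mertk, Axl and Mfge8, which varied together, and for Fcgr1 and Fcgr3, which varied together the other way. They come from RefSeq (build GRCm38.p6, where the submitters' notes name GRCm39), whose table had 8 of the 9 genes. The windows run from 250 bases before the annotated start to 50 after it, on the gene's strand. Mertk lies at chr2:128698665-128698964 on the plus strand. On the minus strand lie Axl at chr7:25788684-25788983, Mfge8 at chr7:79149011-79149310, Fcgr1 at chr3:96293920-96294219 and Fcgr3 at chr1:171059354-171059653. Capitals mark the GC box GGGCGG, on either strand, in Mertk, Axl and Mfge8, and the PU.1-type core GAGGAA, on either strand, in Fcgr1 and Fcgr3.
Mertk: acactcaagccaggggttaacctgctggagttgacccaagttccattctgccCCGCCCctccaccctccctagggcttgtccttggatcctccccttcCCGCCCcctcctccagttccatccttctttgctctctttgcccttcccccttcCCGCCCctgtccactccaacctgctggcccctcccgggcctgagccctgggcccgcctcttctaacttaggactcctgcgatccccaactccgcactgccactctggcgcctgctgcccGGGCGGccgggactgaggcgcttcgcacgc
Axl: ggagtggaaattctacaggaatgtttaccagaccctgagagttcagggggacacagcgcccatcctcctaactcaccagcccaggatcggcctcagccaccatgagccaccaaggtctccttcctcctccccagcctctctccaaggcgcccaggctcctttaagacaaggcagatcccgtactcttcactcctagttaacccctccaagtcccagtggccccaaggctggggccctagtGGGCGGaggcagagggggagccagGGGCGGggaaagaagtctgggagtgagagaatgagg
Mfge8: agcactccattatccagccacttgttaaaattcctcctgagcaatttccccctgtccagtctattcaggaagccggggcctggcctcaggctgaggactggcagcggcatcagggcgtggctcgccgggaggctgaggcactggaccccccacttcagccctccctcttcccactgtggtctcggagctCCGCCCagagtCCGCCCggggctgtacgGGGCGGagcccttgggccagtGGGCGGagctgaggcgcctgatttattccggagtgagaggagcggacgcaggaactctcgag
Fcgr1: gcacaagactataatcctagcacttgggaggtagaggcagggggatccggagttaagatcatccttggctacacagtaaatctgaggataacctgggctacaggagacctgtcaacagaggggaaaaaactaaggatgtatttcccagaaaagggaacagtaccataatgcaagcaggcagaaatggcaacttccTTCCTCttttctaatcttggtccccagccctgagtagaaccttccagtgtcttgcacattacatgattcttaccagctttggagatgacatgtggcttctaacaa
Fcgr3: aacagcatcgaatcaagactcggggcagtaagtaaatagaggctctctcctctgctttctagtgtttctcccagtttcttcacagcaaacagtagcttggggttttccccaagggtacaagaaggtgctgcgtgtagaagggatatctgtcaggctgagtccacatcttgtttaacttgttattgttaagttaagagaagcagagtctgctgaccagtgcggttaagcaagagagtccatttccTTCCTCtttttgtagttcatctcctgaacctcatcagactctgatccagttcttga
These windows differ in composition. G and C made up 66% of the Mertk window, 64.3% of Mfge8, 60.3% of Axl and 58.3% of Gas6, against 46.0% of Fcgr1 and 45.0% of Fcgr3 and a median of 52.7% over 27025 promoters. The GC box occurred 4 times in Mertk, Gas6 and Mfge8 and 2 times in Axl and Cd36, and 0 times in Marco, Fcgr1 and Fcgr3, while 35.9% of all promoters held it. The PU.1-type core, a sequence bound by a myeloid factor, occurred once each in Axl, Mfge8, Marco, Fcgr1 and Fcgr3, while 28.3% of promoters held it. An interferon-gamma activated site TTCNNNGAA (8.47% of promoters) was found once, in Fcgr1, and a MAF half-site TGCTGAC (4.58%) once, in Fcgr3, both strands read. The AP-1 site TGANTCA (7.93%) was in none of the 8. Fcgr1 and Fcgr3 share the 14-base run ttccttcctctttt around the PU.1-type core. It was held by 3 of 27025 promoters (0.0111%), Fcgr1 and Fcgr3 among them. The run was picked as the longest that these windows share, so its rarity is no test of a shared element. A match is a run of letters and was not tested for binding.

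For each uptake gene, the 3 genes with the most similar pattern over the 14 libraries were listed, by Pearson's r with genotype means removed. Mertk was most like Acox3 (0.951), a peroxisomal acyl-CoA oxidase, then Abcg2 (0.935) and Lrrc8d (0.934). Axl was most like Suclg2 (0.992), a subunit of mitochondrial succinyl-CoA ligase, then the lysosomal hexosaminidase Hexa (0.966) and the scavenger receptor Colec12 (0.965). The bridging proteins had other partners. Gas6 was most like Rnf144b (0.946), Zfp652 (0.942) and Fosb (0.940), and Mfge8 was most like Ahnak2 (0.985), Hscb (0.968) and Ccdc152 (0.965). Cd36 had the loosest partners, Rnf135 (0.817), Arhgef3 (0.797) and Nmt1 (0.788). Msr1 was most like the RNA sensor Ifih1 (0.942), Vta1 (0.939) and Tor3a (0.935). Among the Fc receptors, Fcgr1 was most like Fxyd5 (0.936), Msr1 (0.934) and Myl12a (0.933), and Fcgr3 was most like 1 of the rows of the inhibitory receptor Lilrb4a (0.963), Aimp2 (0.948) and Eif3g (0.946). The libraries on a stem are not independent, and the 4 libraries that stand apart weigh heavily in these values.

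The wider uptake pathway was described by 9 lists with 135 genes, of which 116 were tested. The lists were chosen with earlier results of these data known, so their counts beside those of all genes are description and no test. Between mCAT and wt 0 of 116 passed by limma, and 8 had an unadjusted p under 0.05, which 5.37% of all genes had. With the stem as a block 0 of 116 passed by limma, and 24 had an unadjusted p under 0.05, which 9.23% of all genes had. Without the block, the median log2 difference over the 116 was 0.11, beside -0.001 over all genes tested. In that fit 84 of 116 lay above 0, beside 49.7% of all genes. Of the genes the lists name, Itgam, the alpha chain of complement receptor 3, had 24794 ± 3996 in mCAT and 16822 ± 4654 in wt (log2 difference 0.59, limma adjusted p = 0.731). Scarf1, a scavenger receptor that binds C1q, had 853 ± 228 in mCAT and 1326 ± 248 in wt (-0.59, limma adjusted p = 0.412). The receptor Sirpa, which restrains uptake on binding CD47, had 28362 ± 6875 in mCAT and 20639 ± 4442 in wt (0.46, limma adjusted p = 0.878). The list on receptor shedding, which holds the protease inhibitor Timp3 and the inactive rhomboid Rhbdf2 beside proteases, had a median of 0.35 with 6 of 6 tested genes above 0. Of its proteases, Mmp14 differed by 0.54 and Adam9 by 0.47, both with a limma adjusted p of 0.878, and Timp3 differed by 0.20. Fc receptors had a median of -0.07, with 3 of 8 above 0.

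None of the other named list genes passed between mCAT and wt, with limma adjusted p of 0.878 or more for each. Among ligands and integrins Pros1 differed by 0.40 and Itgav by -0.28. Of the engulfment machinery Rhog differed by 0.28 and Elmo2 by 0.27, and of the scavenger receptors Olr1 by 0.26. RhoG and the Elmo proteins act upstream of Rac in engulfment. Of the Fc receptor list Fcmr differed by -0.27 and Fcgr2b by 0.12, and of the kinases and adaptors downstream Vav1 by 0.29 and Src by 0.24. The inhibitory receptor Pirb differed by 0.26, and the transcription factors Stat6 by 0.33 and Maf by 0.28.

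Between C2 and C1, 12 of 116 list genes were called by limma, all 12 higher in C2, where 1.6% of all genes were called higher. As the lists were chosen with earlier results known, this contrast is no test of the pathway. Of the bridging list 4 of 12 were: Mfge8 and the C1q chains, which opsonise dying cells. C1qa had 43931 ± 11783 in C2 and 20804 ± 4009 in C1 (log2 difference 1.07, limma adjusted p = 0.00319), C1qb differed by 0.94 (0.00652) and C1qc by 1.08 (0.00970). Of the receptors for apoptotic cells, 4 of 14 were called. Trem2, a lipid receptor of phagocytes, had 24305 ± 9189 in C2 and 8328 ± 2195 in C1 (1.53, limma adjusted p = 0.00176). The integrin chain Itgb5, which pairs with alpha-v in an integrin that binds Mfge8, had 5194 ± 1303 in C2 and 2234 ± 340 in C1 (1.15, limma adjusted p = 0.000822), and the phospholipid receptors Cd300a and Cd300lb differed by 1.16 (0.000995) and 0.89 (0.0218). Another 4 lists held 1 called gene each: Abca1, a cholesterol exporter (0.83, limma adjusted p = 0.0246), the scavenger receptor Colec12 (1.59, 0.0105), the adaptor Lat2 (0.47, 0.0485) and the inhibitory lectin Cd22 (1.29, 0.0262). The lists of Fc receptors, of transcriptional regulators and on receptor shedding had 0 called genes. Without stems C2_2 and C2_4, with C2 represented by stem C2_1 alone, none of the 12 passed. Their log2 differences were then between 0.25 and 0.84 (lowest limma adjusted p = 0.586 for Itgb5). The change was small in Cd300lb (0.89 to 0.79) and Lat2 (0.47 to 0.38), and large in Mfge8 (1.04 to 0.25) and Colec12 (1.59 to 0.60). In all, 8 of 12096 genes were called without stems C2_2 and C2_4, where all libraries gave 328. The microglial and macrophage marker sums are highest on the same stems, and their part in these differences was not tested. Beside Mfge8, leaving out 1 library at a time ended the call of Cd300lb (without mCAT 6 or wt 6), Abca1 (mCAT 6 or 7, wt 6 or 7), Cd22 (mCAT 3, 6 or 7, wt 7) and Lat2 (11 of 14 fits), with limma adjusted p of at most 0.101.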

How the data were processed

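RNA from sorted macrophages (7 mCAT and 7 wt libraries) was made into Smart-seq2 libraries, which keep no strand, and read as paired ends, per the labels' protocols. Per the submitters' processing notes FastQC, fastp, Salmon and build GRCm39 were used; the sources used here give no versions, annotation or final transformation. The values the authors deposited are on a log2 scale and look variance-stabilised, although titled raw counts: they share 1 lowest value, 5.9641. Its closed form was undone to give normalised counts, and depth was estimated from the most frequent low value, since 58.9% to 81.1% of low counts were whole multiples of it to within 0.15, where chance gives 30%. Whole reads were not recovered, so depth is rough and floors cover counting error only.

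Because the values were not counts, limma 3.58.1 (R 4.3.3, statmod 1.5.0; trend and robust moderation) was run on the deposited log2 values of the 12096 genes with a normalised count of at least 10 in at least 7 libraries. No block was used for genotype; for C2 against C1 the genotype was a term and the stem a correlated block (0.463). Benjamini-Hochberg adjustment ran over all genes tested, at 0.05. Alternatives covered the block, series, filter, pseudocount, normalisation, moderation and single libraries. Libraries were also paired by the number in their titles (numbers 2 to 7, correlations 0.158 to 0.641), and both numberings were tried as blocks. From number 4 upward, this pairing is identical to that by stem, so those correlations are no separate evidence. Only numbers 2 and 3 join libraries of different stems. Their correlations were 0.158 and 0.252, below the 0.659 and 0.447 of stems C1_2 and C1_3. Similar transcripts were sought with blastn 2.17.0 in GENCODE M21. Genes were named as members, as list genes past the threshold in any fit plus the 2 others with the smallest genotype p per list, and as the 3 most similar patterns. Members and lists were chosen with earlier results of these data known. The fits were tested on simulated data.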

Additional observations from a re-analysis of the deposited data

Results flagged for a closer look

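Marco in wt macrophages: wt 5 had 7.21 normalised counts, while the other 6 wt libraries and all 7 mCAT libraries had 0. The gap of wt 5 to the rest is the whole range of the group, above Dixon's critical value for 7 samples (0.568). With 6 of 7 libraries at 0, any single value above 0 would have met this rule, so the rule says nothing of its size. Among 17 groups looked at, chance alone flags about 1 in 20. In wt 5 a count of 3 reads is worth 3.02 normalised counts, so the value stands for a few reads.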

How the results depend on the processing

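Between mCAT and wt, no alternative called an uptake gene. The count of called genes was 24, and 39 with the replicate block by stem, 15 within C1 and 9 within C2, where fewer libraries were used, and 18 to 25 without 1 library. Title numbers as a block gave 36 and turned Mfge8 to -0.00025; Fcgr3 turned to 0.0089 within C1 and 0.0036 under quantile normalisation. Without 1 library at a time the log2 difference ran from 0.24 to 0.56 for Axl, 0.11 to 0.42 for Mertk, 0.05 to 0.42 for Mfge8, -0.068 to 0.34 for Gas6, -0.21 to 0.012 for Cd36, -0.15 to 0.050 for Msr1, -0.23 to 0.0080 for Fcgr1 and -0.14 to 0.038 for Fcgr3. Between C2 and C1 the count was 328, and 903 without the block, 81 in mCAT only, 15 in wt only and 186 to 507 without 1 library (507 without wt 5, 186 without wt 6). Leaving out stem C2_1 gave 1170, and leaving out stems C2_2 and C2_4 gave 8 and turned Mertk to -0.41, Msr1 to 0.35, Fcgr1 to 0.60 and Fcgr3 to 0.081; these exclusions were chosen after seeing the data. Axl passed without the block (limma adjusted p = 0.0179) or the low-value filter (0.0455), and Mfge8 did not pass in mCAT only or wt only. Of the 14 fits without 1 library, Axl passed in 2 (without wt 2 or mCAT 5) and Gas6 in 1 (without wt 5). The causes were not tested.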
